A study of Rattus norvegicus with 16 samples.

Results

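ASCRPR008177 is the array probe of rno_circRNA_012261, a circular RNA (circRNA) formed from the gene Fam126a, and is 1 of 14145 circRNA probes on the array. It was chosen by its m6A quantity in morphine-tolerant against saline-treated rats: among the 66 circRNAs that met the study's criterion for a decrease in the deposited values (a fold change of at least 1.5 with an unadjusted P under 0.05), its ratio of MT to NS, 0.426, was the lowest. The next in that order, ASCRPR008403, had a ratio of 0.450, with its IP spot well above background on 4 of 8 arrays. Every MT against NS measure of ASCRPR008177 below is therefore a description without a test. The deposited files list circRNAs by probe only, and the circRNA's name and host gene come from the study, paired with the probe through its fold change and P. RefSeq (GRCr8) lists the host gene, a protein-coding gene, under the symbol Hycc1 with Fam126a as a synonym.

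Spinal cord RNA came from adult male SD rats in 2 groups of 4. Rats of the MT group received 10 μg of morphine hydrochloride in 10 μl through an intrathecal tube in the morning and in the evening for 7 days, and rats of the NS group received 10 μl of saline on the same schedule. Per the study, the cords were collected the next morning, 1 h after an injection of morphine or saline. The repeated doses and that last dose cannot be told apart. No genotype or other agent is given in the labels for either group. An antibody against N6-methyladenosine (m6A) split each rat's lumbar cord RNA into a bound fraction (IP) and a supernatant (SUP), linear RNA was digested with RNase R, and both fractions were hybridised together on 1 Agilent array per rat, IP in Cy5 and SUP in Cy3. The median processed signal over circRNAs was 295 to 522 in IP and 314 to 559 in SUP for the MT group, and 342 to 446 and 360 to 477 for the NS group. Between 83.6% and 92.7% of circRNAs were well above background in IP on the MT arrays, with the lowest share in MT rat 4, and between 89.8% and 91.3% on the NS arrays. The slide held the arrays of each group in a row of their own, so position and group cannot be told apart, and the dyes were not swapped, so dye and fraction cannot be told apart. The number of arrays limits the precision. The whole lumbar cord was extracted, and fewer cells of a type cannot be told apart from less of an RNA per cell.

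A circRNA arises by back-splicing, in which a downstream splice donor is joined to an upstream acceptor, and the closed loop resists exonucleases such as RNase R. m6A is placed on RNA by the METTL3 and METTL14 methyltransferase complex, removed by the demethylases FTO and ALKBH5, and bound by YTH-domain proteins. Fam126a encodes hyccin, a subunit of the plasma membrane complex of the lipid kinase PI4KA with TTC7 and EFR3 proteins. In humans, loss of hyccin causes hypomyelination with congenital cataract, and hyccin is known for its part in myelin formation by oligodendrocytes. The array measures the circular transcript of the locus, not hyccin mRNA or protein. No circRNA probe is paired with a host gene in the files, so the other subunits of the hyccin complex and the oligodendrocyte, neuron, astrocyte and microglia markers could not be counted among the circRNAs. Of the 50 linear RNA probes on the array, 30 had a RefSeq symbol and 0 belonged to the 39 listed genes, and the labelled tissue was not checked against its defining markers.

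The spot of ASCRPR008177 was dim in both fractions. In IP the scanner's median spot signal was 23, 27, 23 and 25 intensity units in MT rats 1 to 4, over a local background of 16, 14.5, 15 and 16. In NS rats 1 to 4 it was 29, 45, 29 and 32.5, over 15, 18.5, 17 and 20. The local background thus stayed between 14.5 and 20 units, and the spot itself was brighter in each NS rat than in any MT rat. In SUP the median spot signal was 40, 34, 38 and 34 in MT rats 1 to 4 and 35, 38, 30 and 33 in NS rats 1 to 4, over a local background of 16 to 18 throughout. On each array the circRNA had 1 spot, with no outlier or saturation flag. The scanner called it well above background in SUP on all 8 arrays and in IP on every array except that of MT rat 4.

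After the scanner's own background subtraction, the IP net signal was 7.22, 10.9, 5.39 and 4.46 units in MT rats 1 to 4 and 12.8, 25.7, 12.3 and 13.0 units in NS rats 1 to 4. All 4 MT values lay below all 4 NS values, with group means of 6.98 ± 2.83 and 15.9 ± 6.49 (SD, n = 4), a 2.28-fold higher mean in the NS group. This kind of separation was seen for 2.93% of the 12845 circRNAs measured, and since the contrast is the one behind the choice of the circRNA, nothing is read from that share. NS rat 2 was the brightest by far, and the other 3 NS rats lay close together at 12.3 to 13.0 units. The scanner's own error estimate for the IP spot was 10.7% to 24.6% of the processed signal over the 8 arrays, with a mean of 19.5% for the MT rats and 12.3% for the NS rats, and was thus larger for the dimmer group.

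In SUP the net signal ran the other way. It was 15.6, 12.6, 13.2 and 7.77 units in MT rats 1 to 4 and 10.7, 9.95, 5.02 and 6.25 units in NS rats 1 to 4. The groups overlapped only through MT rat 4, which lay below NS rats 1 and 2, and the means were 12.3 ± 3.27 and 7.98 ± 2.77 (SD, n = 4), 1.54-fold higher in the MT group. The brightest of the 77 negative control spots reached 0.885 to 3.76 units in IP and 0.885 to 2.97 units in SUP, and ASCRPR008177 exceeded it on all 8 arrays in both fractions. Probes that the array carries as several spots, at net signals in the range of ASCRPR008177, differed between their spots by a median SD of 0.144 to 0.204 on the log2 scale in IP (44 to 52 probes per array) and 0.169 to 0.236 in SUP (24 to 32 probes).

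**Figure D1:**
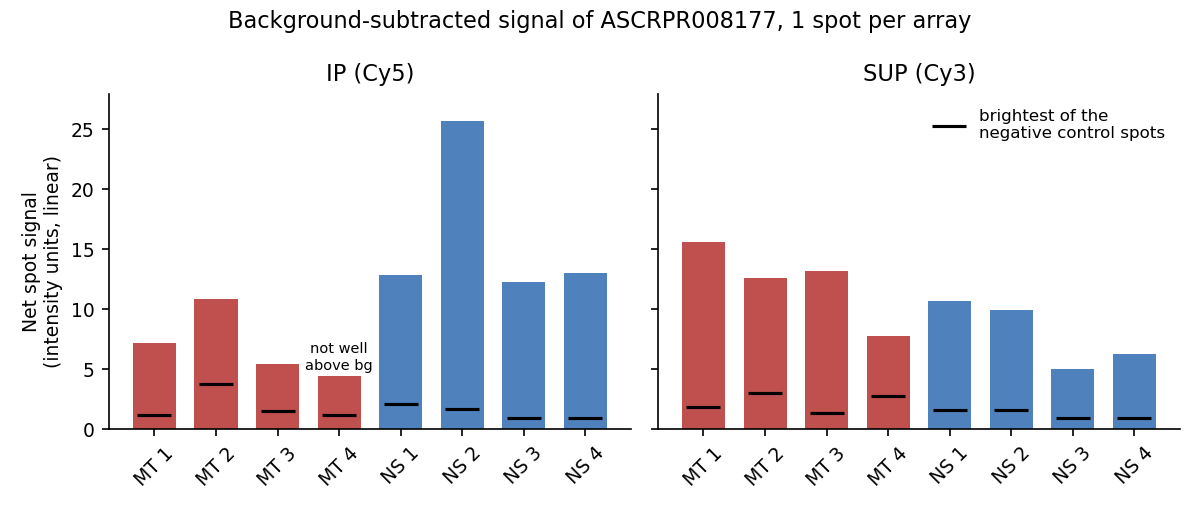
Background-subtracted signal of ASCRPR008177 in linear intensity units, 1 bar per rat, in IP (left) and SUP (right), with a black line at the brightest negative control spot of the same array. In IP the 4 NS bars (12.3 to 25.7) are all above the 4 MT bars (4.46 to 10.9), and in SUP the MT bars (7.77 to 15.6) are mostly above the NS bars (5.02 to 10.7).

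Another measure of the spot gave a smaller gap. With the local background taken off the median spot signal, which changes both the spot statistic and the background, IP was 7, 12.5, 8 and 9 units in MT rats 1 to 4 and 14, 26.5, 12 and 12.5 units in NS rats 1 to 4, so that MT rat 2 was level with NS rat 4 and above NS rat 3. The means were 9.12 ± 2.39 and 16.2 ± 6.89 (SD, n = 4), and the NS to MT ratio of means 1.78 in place of 2.28. SUP on this measure was 18 to 22 units in MT rats and 12 to 21 in NS rats, 1.19-fold higher in the MT mean.

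The m6A quantity is the log2 processed IP signal after normalization to the spike-in probes. It was 6.11, 6.48, 5.17 and 5.35 in MT rats 1 to 4 and 6.75, 7.69, 6.39 and 6.54 in NS rats 1 to 4. The groups touched at 1 point, MT rat 2 lying just above NS rat 3. The means were 5.78 ± 0.62 and 6.84 ± 0.58 (SD, n = 4), a difference of -1.06 (SE 0.43), or 2.09-fold lower in the MT group. Without NS rat 2 the difference was -0.78.

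In the values deposited by the authors, which are on a log2 scale with another constant per array, the m6A quantity was -7.11, -7.08, -8.03 and -7.63 in MT rats 1 to 4 and -6.38, -5.31, -6.88 and -6.35 in NS rats 1 to 4. Here the groups did not overlap, as held for 2.09% of 12893 circRNAs, and the difference was -1.23. The difference ranked seventh from the lowest in both sets of values, over all circRNAs measured whatever their P. The median circRNA differed by 0.01 in the spike-in normalized values and by -0.15 in the deposited values. Within the groups, ASCRPR008177 varied more than most: its within-group SD was 0.60 against a median of 0.21, and 86.0% of circRNAs varied less.

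On the same log2 scale, SUP was 6.89, 6.93, 6.61 and 5.81 in MT rats 1 to 4 and 6.27, 6.25, 5.55 and 5.69 in NS rats 1 to 4. The means were 6.56 ± 0.52 and 5.94 ± 0.37 (SD, n = 4), a difference of 0.62 (SE 0.32) with the groups overlapping through MT rat 4, and 0.87 without that rat. It was smaller under most other treatments of the signals: 0.31 after scaling to the 75th percentile, 0.28 with normexp and no offset, 0.26 with the local background, 0.22 after scaling to the median, 0.11 after loess with Aquantile and 0.07 with normexp and an offset of 50. SUP of the median circRNA was also higher in the MT group, by 0.26, and the difference of ASCRPR008177 ranked 3238 from the highest of 12614. The MT group thus had no lower SUP mean under any of these treatments. With normexp and an offset of 50 its IP mean was not lower either, with a difference of 0.01.

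Expression, the log2 of IP plus SUP, was 7.55, 7.72, 7.06 and 6.60 in MT rats 1 to 4 and 7.53, 8.14, 7.03 and 7.18 in NS rats 1 to 4. The groups overlapped, with MT rats 1 and 2 above all NS rats except NS rat 2. The means were 7.23 ± 0.51 and 7.47 ± 0.49 (SD, n = 4), and the difference of -0.24 (SE 0.35) was smaller than the SD between rats. This depended on the processing: the difference was -0.50 in the deposited values, -0.58 after scaling to the 75th percentile of each array and channel, -0.64 after loess with Aquantile and -0.65 after scaling to the median. With median scaling the SD was 0.36 and 0.43 in the MT and NS groups, and MT rat 2 alone overlapped the NS group. Before the dye normalization the difference was -0.02, without NS rat 2 it was -0.01, without MT rat 4 it was -0.02, and with normexp it turned to 0.05 (offset of 50) and 0.09 (no offset). Relative to the other circRNAs it was low, since the median circRNA was 0.17 higher in the MT group and the difference of ASCRPR008177 ranked 331 from the lowest of 12588.

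The m6A level is the share of IP in the sum of IP and SUP. In MT rats 1 to 4 it was 36.8%, 42.2%, 26.9% and 42.2%, and in NS rats 1 to 4 it was 58.2%, 73.0%, 64.0% and 64.3%. All 4 MT rats lay below all 4 NS rats, and the highest MT level and the lowest NS level were well apart. The means were 37.0% ± 7.21 and 64.9% ± 6.08 (SD, n = 4), a difference of -27.9 percentage points (SE 4.72). The level of the median circRNA also differed, by -3.14 points, and 8.82% of 12588 circRNAs had all 4 MT levels below all 4 NS levels. The difference of ASCRPR008177 ranked seventh from the lowest in percentage points and 42 from the lowest as log2(IP/SUP), which differed by -1.68 against -0.23 for the median circRNA. Because IP enters the level, this measure is not independent of the choice of the circRNA either.

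**Figure D2:**
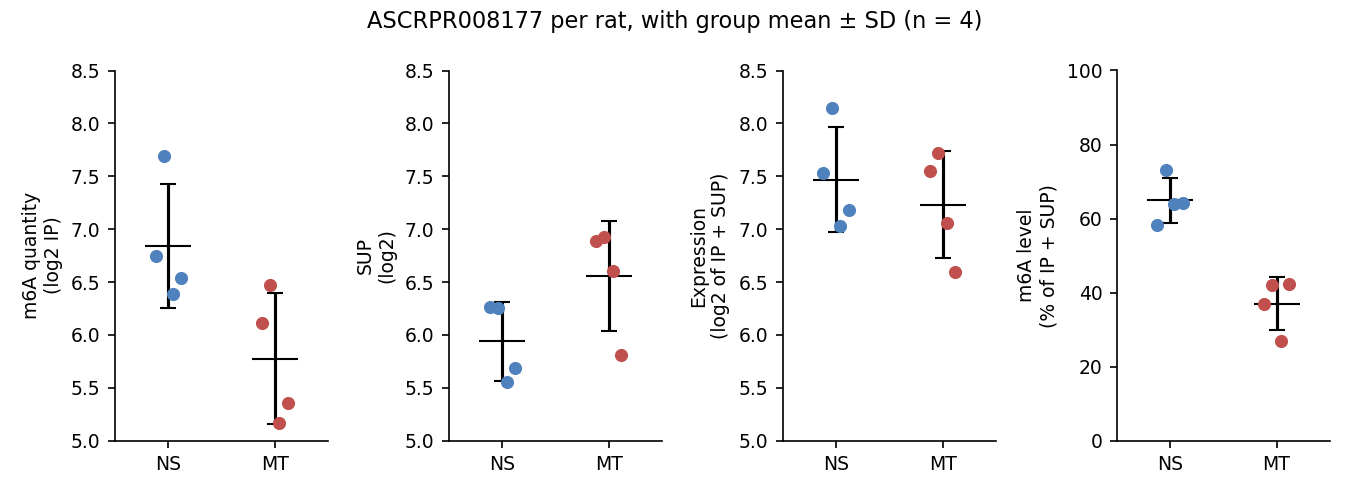
ASCRPR008177 in each rat (points) with the group mean and SD (n = 4), for the m6A quantity, SUP and expression in log2 units and for the m6A level in percent. The MT points are low in the m6A quantity (mean 5.78 against 6.84) and in the m6A level (37.0% against 64.9%), higher in SUP (6.56 against 5.94) and close to the NS mean in expression (7.23 against 7.47), and the groups overlap in all but the m6A level. On the median spot signal, not shown here, the groups overlapped in the m6A level too.

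The ratio of IP to SUP within an array can be set against the other circRNAs of that array. Its log2 was -0.78, -0.45, -1.44 and -0.45 in MT rats 1 to 4 and 0.48, 1.44, 0.83 and 0.85 in NS rats 1 to 4. Less the median circRNA of the same array it was 0.02, -0.03, -0.91 and 0.28 in the MT rats and 1.01, 1.97, 1.06 and 1.03 in the NS rats. In the NS rats ASCRPR008177 stood among the circRNAs with the higher ratios, above 83.7%, 98.1%, 91.9% and 90.5% of them, and in the MT rats it stood near or below the middle, above 50.7%, 48.8%, 27.1% and 58.4%. The means less the array median were -0.16 ± 0.52 for MT rats and 1.27 ± 0.47 for NS rats (SD, n = 4), a difference of -1.43 (SE 0.35).

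**Figure D3:**
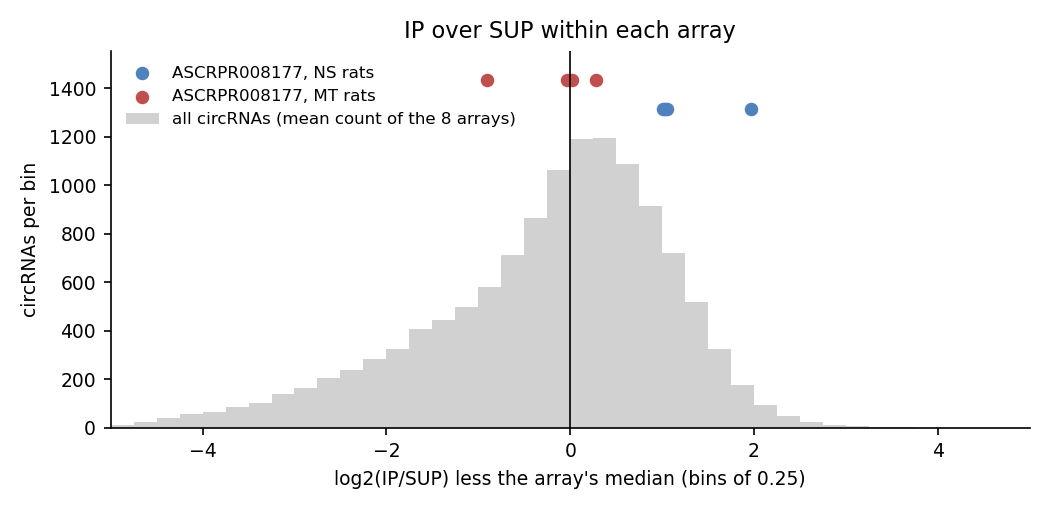
log2(IP/SUP) less the median of the array for all circRNAs (grey histogram, mean count of the 8 arrays per bin) and for ASCRPR008177 in each rat (points, with no meaning to their height). The NS points lie between 1.01 and 1.97, on the upper side of the histogram, and the MT points between -0.91 and 0.28, around its middle.

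The average of this ratio over both groups is not the contrast that chose the circRNA, but it draws on the same IP values. It was tested, and the result is not independent of the choice. Less the array median, the NS mean was 1.27 and the MT mean -0.16, so the NS rats alone made the average positive. Relative to the median circRNA, log2(IP/SUP) averaged 0.55 (SE 0.16) over the 8 rats and was above 0 in 6 of 8, with an adjusted p of 0.00899 (limma, Benjamini-Hochberg over 12669 circRNAs). It was higher than in 71.5% of the circRNAs tested. Of all circRNAs, 80.1% passed this test, 5044 as higher and 5098 as lower, so a call in it sets no circRNA apart. Against 0 on the spike-in scale the average was 0.06 (SE 0.14), above 0 in 4 of 8 rats, with an adjusted p of 0.713 by limma, in a test that 79.3% of circRNAs passed. This result was kept under only 3 of 11 alternatives. The average was 0.387 in the deposited values (adjusted p by limma 0.0417) and 0.792 after scaling to the 75th percentile (0.0011). Before dye normalization it was -0.614 (0.00331).

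The call against the median circRNA depended on how the scanner signals were treated. Before the scanner's dye normalization the average was 0.05, with an adjusted p of 0.77 by limma, and with the local background subtracted from the median spot signal it turned to -0.43, with an adjusted p of 0.0173. Over all alternatives tried, the adjusted p by limma ran from 0.00199 to 0.999. The dye normalization multiplied the net signal of the spot by 8.35 to 13.6 in IP and by 4.35 to 9.36 in SUP.

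The difference between the groups also depended on the spot measure and its background correction. Between the scanner's net signal and the median spot signal both changed together and were not separated. On the median spot signal the correction alone was varied, in 3 forms. When the median spot signal was corrected with limma's normexp method and an offset of 50, which is larger than the net signal of the spot and narrows log2 differences by construction, the m6A quantity was 5.86, 6.13, 5.54 and 5.69 in MT rats 1 to 4 and 5.88, 5.98, 5.69 and 5.66 in NS rats 1 to 4. The groups were intermixed, and the difference was 0.01, from a rank of seventh to one of 4619 from the lowest of 12845. With normexp and no offset the difference was -0.28, and with the local background subtracted it was -0.63. The m6A level differed by -1.05, -8.57 and -13.1 percentage points under these corrections, with overlapping groups in each. Every alternative built on the scanner's own background-subtracted signal, with all 8 rats, gave a difference of -1.23 to -1.03 in the m6A quantity and of -27.9 to -18.8 points in the m6A level, whichever scaling was used.

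**Figure D4:**
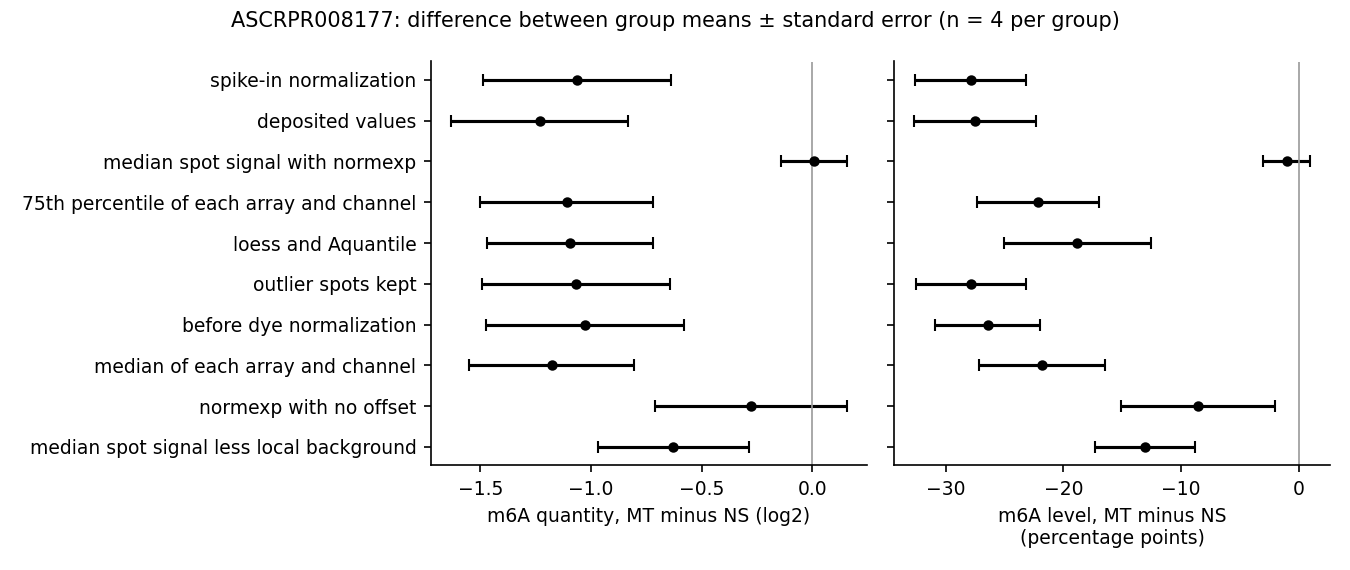
Difference between the MT and NS means of ASCRPR008177, with its standard error (n = 4 per group), in the m6A quantity (left, log2) and the m6A level (right, percentage points) under each treatment of the signals. The points lie between -1.23 and -1.03 and between -27.9 and -18.8 for the scaling choices, and shift towards 0 for the normexp corrections and for the local background.

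The 93 circRNAs printed within 5 rows and columns of the spot had a median difference of -0.01 in the m6A quantity, with a range of -0.44 to 1.01, and 51.6% of them were lower in the MT group. In SUP their median difference was 0.29, with 21.5% lower in the MT group. In log2(IP/SUP) it was -0.31, with 81.7% lower in the MT group and a lowest value of -1.79, which is below the -1.68 of ASCRPR008177. Since ASCRPR008177 was chosen for its difference, its place among these neighbours is no test of an effect of position, which was not tested.

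The circRNAs whose m6A quantity followed ASCRPR008177 most closely over the 8 rats, after subtraction of the array median, were ASCRPR004845 (Pearson's r = 0.95), ASCRPR001533 (0.93), ASCRPR005062 (0.93), ASCRPR004652 (0.93) and ASCRPR005932 (0.92), out of 12620 circRNAs. Their own differences between MT and NS ran from -0.29 to -0.17, smaller in size than the -1.16 of ASCRPR008177 on the same scale. By log2(IP/SUP) less the array median the closest of 12587 were ASCRPR001576 (r = 0.95), ASCRPR007733 (0.93), ASCRPR012966 (0.91), ASCRPR009251 (0.90) and ASCRPR011914 (0.90), with differences of -0.70 to -0.14. The correlation exceeded 0.54 for the top 5% of circRNAs by m6A quantity and 0.61 by log2(IP/SUP). These values describe 8 arrays that all the circRNAs share, together with the array's scaling and the 2 groups. The 10 circRNAs were well above background on all 8 arrays in both fractions, and none has a host gene in the files.

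**Figure D5:**
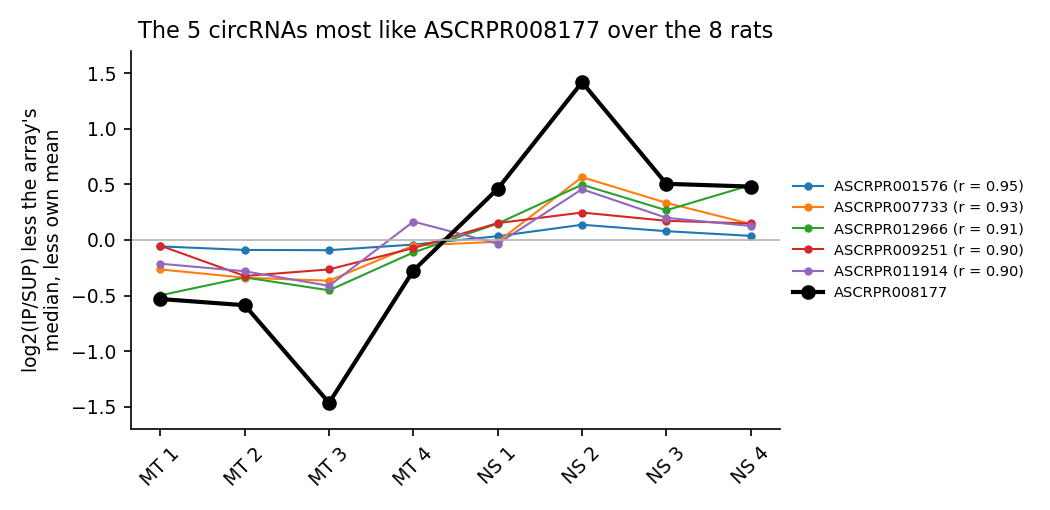
log2(IP/SUP) less the median of the array and less each circRNA's own mean, in the 8 rats, for ASCRPR008177 (black) and the 5 circRNAs with the most similar pattern, with Pearson's r over the 8 rats in the legend. The lines only join the points of a circRNA. ASCRPR008177 spans a wider range than the others, each of which has a lower mean in the MT rats, although MT rat 4 of ASCRPR011914 lies above NS rats 1 and 4.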

How the data were processed

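Per the labels and the study's methods, the authors split spinal cord RNA of each rat with an anti-m6A antibody, labelled IP with Cy5 and SUP with Cy3, hybridised both to 1 circRNA array, scanned it on an Agilent scanner and extracted the spot signals with Agilent Feature Extraction 11.0.1.1 (version from the submitters' processing notes). The deposited scanner files hold spot intensity (raw, background-subtracted and dye-normalized), and the deposited value table holds log2 values normalized to spike-ins by the authors. The constant per array and channel in that table was not recovered from the spike-in probes, so its scaling is known only as far as the study's methods state it. The array design names an older rat build, so no coordinates are printed.

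Here the log2 processed signal was averaged over spots flagged as no outlier and centred on 102 spike-in probes of 4 spots each per array and channel. circRNAs well above background on at least 4 of 8 arrays were kept. log2(IP/SUP) was fitted with limma 3.58.1 (R 4.3.3) with group as a term, with adjustment by Benjamini-Hochberg and a threshold of 0.05. The other measures were described with means, SD and SE. Tables and plots used Python 3.11.15, pandas 2.3.3, numpy 2.4.6 and matplotlib 3.10.9. The fit was tested on simulated data. The 4 rats per group are biological replicates per the labels.

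The circRNA, the marker and pathway lists and the measures were chosen with earlier results of these data known. The circRNAs named are ASCRPR008177, the next in order of fold change, and the 5 most similar over the 8 rats in each of 2 measures. The alternatives were the deposited values, normexp, other scalings, outlier spots kept, no filter, a replicate block and leaving out each rat. 4 more (signals before dye normalization, median scaling, normexp without an offset, local background) were chosen after seeing the data.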

Additional observations from a re-analysis of the deposited data

Results flagged for a closer look

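2 of 18 groups of 4 rats examined for ASCRPR008177 held a value far from the other 3. Chance alone gives such a value in about 1 in 20 independent groups. The 18 groups are measures of the same spots in the same rats and are not independent, so the count cannot be judged by that rate. Both values came from NS rat 2 and rest on the same IP spot. In the IP net signal its 25.7 units stood apart from the 12.3 to 13.0 units of the other NS rats, a gap of 0.946 of the group's whole range. In log2(IP/SUP) less the array median its 1.97 stood apart from 1.01 to 1.06, a gap of 0.953 of the range. Without NS rat 2, the difference in the m6A quantity was -0.78 in place of -1.06. The source of the high value was not tested.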

How the results depend on the processing

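Direction and side of the threshold (for the untested differences, a shift below the SD between rats) were kept under 8 of 10 alternatives for the m6A quantity, SUP and expression, 6 of 10 for the m6A level, 7 of 11 for IP over SUP against the median circRNA and 3 of 11 against 0. Within that SD, expression still ran from -0.653 (median scaling) to -0.0234 (before dye normalization) against -0.236, and SUP was 0.223 with median scaling, 0.257 with the local background, 0.275 with normexp and no offset and 0.315 at the 75th percentile, against 0.618. With normexp and an offset of 50 the differences were 0.00720 (m6A quantity), -1.05 points (level), 0.0712 (SUP) and 0.0466 (expression), and the averages of IP over SUP were 0.000122 against the median circRNA and -0.508 against 0. With normexp and no offset they were -0.278, -8.57 points and, for expression, 0.0883, with averages of 0.0162 and -0.617. With the local background subtracted from the median spot signal the level differed by -13.1 points and the averages were -0.435 and -1.07. Loess with Aquantile gave -18.8 points for the level, 0.112 for SUP and 0.806 for the average against 0. That average was 0.387 in the deposited values, 0.792 after scaling to the 75th percentile, 0.779 after scaling to the median and -0.614 before dye normalization, where the average against the median circRNA was 0.0469.

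Leaving out each rat in turn gave -1.30 to -0.782 for the m6A quantity, -30.1 to -24.5 points for the level, 0.489 to 0.869 for SUP and -0.399 (without MT rat 2) to -0.0116 (without NS rat 2) for expression. The average against the median circRNA was 0.437 to 0.679 (adjusted p by limma 0.00199 to 0.0266), and that against 0 was -0.0307 to 0.168, negative only without NS rat 2. Rats with the same number correlated at 0.523, -0.0398, -0.0178 and 0.471 over circRNAs for numbers 1 to 4, so a pairing by number was neither shown nor excluded. With the replicate block the m6A quantity differed by -1.06, with an SE of 0.143 against 0.426 without the block. The SE of the expression difference was 0.156 against 0.355. The average against the median circRNA was 0.554 with the block (adjusted p by limma 0.0105), and the block changed no call.

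The dim spot limits these values: in IP the net signal was 2.89 to 15.0 times that of the brightest negative control spot. A fit restricted to circRNAs well above background on all 8 arrays could not include ASCRPR008177, because its IP spot was not well above background in MT rat 4. The comparison of pathway lists was not run, since no circRNA is paired with a host gene in the files.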
